A study of Rattus norvegicus with 30 samples.

Results

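The genes described are those for the proteins of the mitochondrial ribosome, named Mrpl in rat where the protein belongs to the large subunit and Mrps where it belongs to the small subunit. Every gene of the array whose probe accession led to a symbol beginning with Mrpl or Mrps and a number was taken, which gave 67 of the 26785 genes on the array. Of these 26785, 15443 carry a symbol and 11342 are transcript accessions that led to no symbol, each counted as a gene. The brightest of a gene's probes stood for it, and 11 of the 67 genes had 2 probes. All 67 were well above background on all 30 arrays and were among the 18333 genes tested (11304 with a symbol and 7029 accessions), so the filter on dim probes removed none of them. By textbook knowledge 44 encode proteins of the large subunit and 23 proteins of the small subunit, Mrps18a and Mrps30 being counted as large subunit proteins in spite of their names. By the same knowledge 38 have a bacterial homologue and 29 are specific to mitochondria. Mrps18a and Mrps18c were counted with the former and Mrps18b with the latter, although their names are alike, so this split depends on such choices.

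Levels were measured with one-colour Agilent arrays in the left ventricle of 30 rats, 1 array for each heart. The rats were Sprague Dawley males, 16 to 18 weeks of age. They ate Rodent Chow (LabDiet 5001) or, over 8 to 10 weeks, a high-sucrose diet that the labels use as a model of insulin resistance. In each diet 5 hearts were frozen without perfusion. In the other 2 groups of 5, the heart was perfused ex vivo in the working mode for 60 min after cold arrest, with 25 mmol/L glucose or, as osmotic control, 25 mmol/L mannitol. All perfused hearts also received propionate at 2 mmol/L, DL-beta-hydroxybutyric acid at 10 mmol/L and acetoacetate at 1 mmol/L, so mannitol hearts had fuel other than glucose. All rats were anesthetized with chloral hydrate, and no group had cold arrest without perfusion. The samples of a group are called biological replicates by the submitters, and their number limits the precision.

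The mitochondrial ribosome translates the few mRNAs of mitochondrial DNA, which encode core subunits of the respiratory chain and of ATP synthase. Its ribosomal RNAs come from mitochondrial DNA, but all of its proteins are encoded in the nucleus, made in the cytosol and imported, so that assembly needs both genomes. The heart, which depends on oxidative phosphorylation for its contraction, is rich in mitochondria. Nuclear respiratory factor 1, the ETS family factor GABP and YY1 are well known to bind promoters of nuclear genes for mitochondrial proteins.

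Promoters from the RefSeq table (build GRCr8, 250 bases before to 50 after the start of the gene) were matched for 55 of the 67 genes. The 4 shown here belong to genes whose transcripts fell with perfusion: Mrps16 (chr15:3967559-3967858, plus strand) and Mrpl34 (chr16:18186197-18186496, plus strand), which had the smallest p-values, and Mrps18c (chr14:9122857-9123156, minus strand) and Mrpl32 (chr17:55260401-55260700, plus strand), which hold motif matches. Capitals mark the matches, and the sequences are written 5′ to 3′ in the direction of the gene.
Mrps16: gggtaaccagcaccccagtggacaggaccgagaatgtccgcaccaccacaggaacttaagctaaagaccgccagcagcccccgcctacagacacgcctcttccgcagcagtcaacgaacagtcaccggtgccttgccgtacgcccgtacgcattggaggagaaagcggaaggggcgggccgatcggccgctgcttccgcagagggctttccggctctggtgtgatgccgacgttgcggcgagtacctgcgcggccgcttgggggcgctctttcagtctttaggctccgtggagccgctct
Mrpl34: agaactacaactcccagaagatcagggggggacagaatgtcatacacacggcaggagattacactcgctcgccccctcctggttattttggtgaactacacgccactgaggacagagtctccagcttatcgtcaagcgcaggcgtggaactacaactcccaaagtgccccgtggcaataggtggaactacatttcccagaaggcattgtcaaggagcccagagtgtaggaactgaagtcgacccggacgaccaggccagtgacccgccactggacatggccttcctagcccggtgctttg
Mrps18c: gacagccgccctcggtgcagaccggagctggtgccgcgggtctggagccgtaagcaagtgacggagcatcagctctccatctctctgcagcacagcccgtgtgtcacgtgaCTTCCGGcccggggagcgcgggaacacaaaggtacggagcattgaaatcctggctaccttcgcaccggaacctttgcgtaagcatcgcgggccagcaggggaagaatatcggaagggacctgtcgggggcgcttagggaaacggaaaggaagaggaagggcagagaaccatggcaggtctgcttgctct
Mrpl32: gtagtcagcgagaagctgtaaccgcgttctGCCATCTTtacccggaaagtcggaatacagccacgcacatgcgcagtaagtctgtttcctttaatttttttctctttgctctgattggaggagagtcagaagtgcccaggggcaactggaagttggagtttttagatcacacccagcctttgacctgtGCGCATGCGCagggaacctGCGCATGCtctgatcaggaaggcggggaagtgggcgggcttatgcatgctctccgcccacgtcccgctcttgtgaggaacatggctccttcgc
The letters searched on both strands were GCGCATGC for nuclear respiratory factor 1 (a shorter form, taken after a longer one had been counted), CCGGAAG for ETS factors and AAGATGGC for YY1. No 2 of these motifs overlapped in the 4 promoters. In the promoter of Mrps18c the ETS letters began at position -139 from the start, on the strand opposite to the gene. In that of Mrpl32 the YY1 letters began at position -220, also on the opposite strand. The same promoter matched the nuclear respiratory factor 1 letters 3 times, from position -62 on, and the first pair lie on opposite strands and overlap each other. The promoters of Mrps16 and Mrpl34 held none of these letters, which says only that these exact letters are not in this window.

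Over the 55 promoters, 19 held the ETS letters (34.5%, against 8.75% of all 33469 rat promoters of this length). The YY1 letters were in 13 (23.6%, against 3.17%) and the nuclear respiratory factor 1 letters in 5 (9.09%, against 2.47%). The TATA letters TATAAA were in 7 (12.7%, against 14.2%). The median GC content was 56.3% for the mitoribosomal promoters and 51.7% for all. Among the 15 matched promoters of genes that fell with perfusion, 6 held the ETS letters, 3 the YY1 letters and 3 the nuclear respiratory factor 1 letters, beside 13, 10 and 2 of the 40 matched promoters of the other mitoribosomal genes. These are descriptions of letters and not of binding.

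Every level below is a log2 signal relative to the 75th percentile of its own array, so that 0 is the signal which 75% of the array's probes do not exceed, and differences of these levels are log2 changes. Across arrays, 48.8% to 75.4% of probes were well above background and no probe was saturated. On 4 arrays the standard deviation of the negative controls passed 8 intensity units: replicate 2 of the chow non-perfused group, replicates 1 and 5 of the sucrose non-perfused group and replicate 5 of the sucrose mannitol group. Replicate 1 of the sucrose mannitol group lay alone on its slide, while the other 29 arrays shared 4 slides that each held all 6 groups. The 9 cardiomyocyte markers, Myh6 and Tnnt2 among them, were well above background on all arrays and none of them was called in the perfusion comparison. In that comparison 12.3% of all genes tested fell and 10.0% rose. Markers of red blood cells, Hbb and Alas2 among them, fell with perfusion (6 of 6), and their summed linear signal, in multiples of the 75th percentile, was 587 to 970 in non-perfused hearts and 5.12 to 102 in perfused hearts. Of 3 neutrophil markers, S100a8 and S100a9 fell, and Csf3r had a change of 0.51 (adjusted p = 0.133). Of 5 macrophage markers Cd68, Csf1r and Mrc1 rose, and the other two (0.20 each) did not pass. Of 5 fibroblast markers Dcn and Lum rose, and Col1a1 (0.16), Col1a2 (0.03) and Pdgfra (-0.12) did not pass. Of 6 endothelial markers Cldn5 rose (1.79), and the other five, at -0.24 to 0.09, did not pass. The 3 smooth muscle and 3 atrial markers were not called, although the atrial markers were lower in perfused hearts (median change -1.08; Myl7 -1.46, adjusted p = 0.0717). The part of these cells in the results below was not tested, and fewer cells of a type and less RNA per cell cannot be told apart in such bulk tissue.

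The transcripts of 19 mitoribosomal proteins fell with perfusion and those of none rose, each change being small. In the mean over both diets and buffers (20 perfused against 10 non-perfused arrays), 19 of 67 genes fell (28.4%) at an adjusted p under 0.05 by limma, beside 12.3% of all genes tested. A further 10.0% of all genes tested rose, but no mitoribosomal gene did. Among the 11304 tested genes with a symbol the shares were 14.4% and 11.6%, and among the 7029 accessions without one 8.95% and 7.50%. The median change over the 67 genes was -0.12, against -0.03 over all genes tested, and 63 of the 67 were lower in perfused hearts (94.0%, against 58.1% of all genes tested). The changes ran from -0.28 (Mrpl14) to 0.16 (Mrpl52), and the largest corresponds to a 1.21-fold lower level. The values that the authors deposited, whose scaling between arrays is not stated, called none of the 67 by limma (6 at an unadjusted p under 0.05). With those values 59 of 67 genes were still lower in perfused hearts, with a median change of -0.09 against -0.004 for all genes, of which 6.24% were called.

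**Figure D1:**
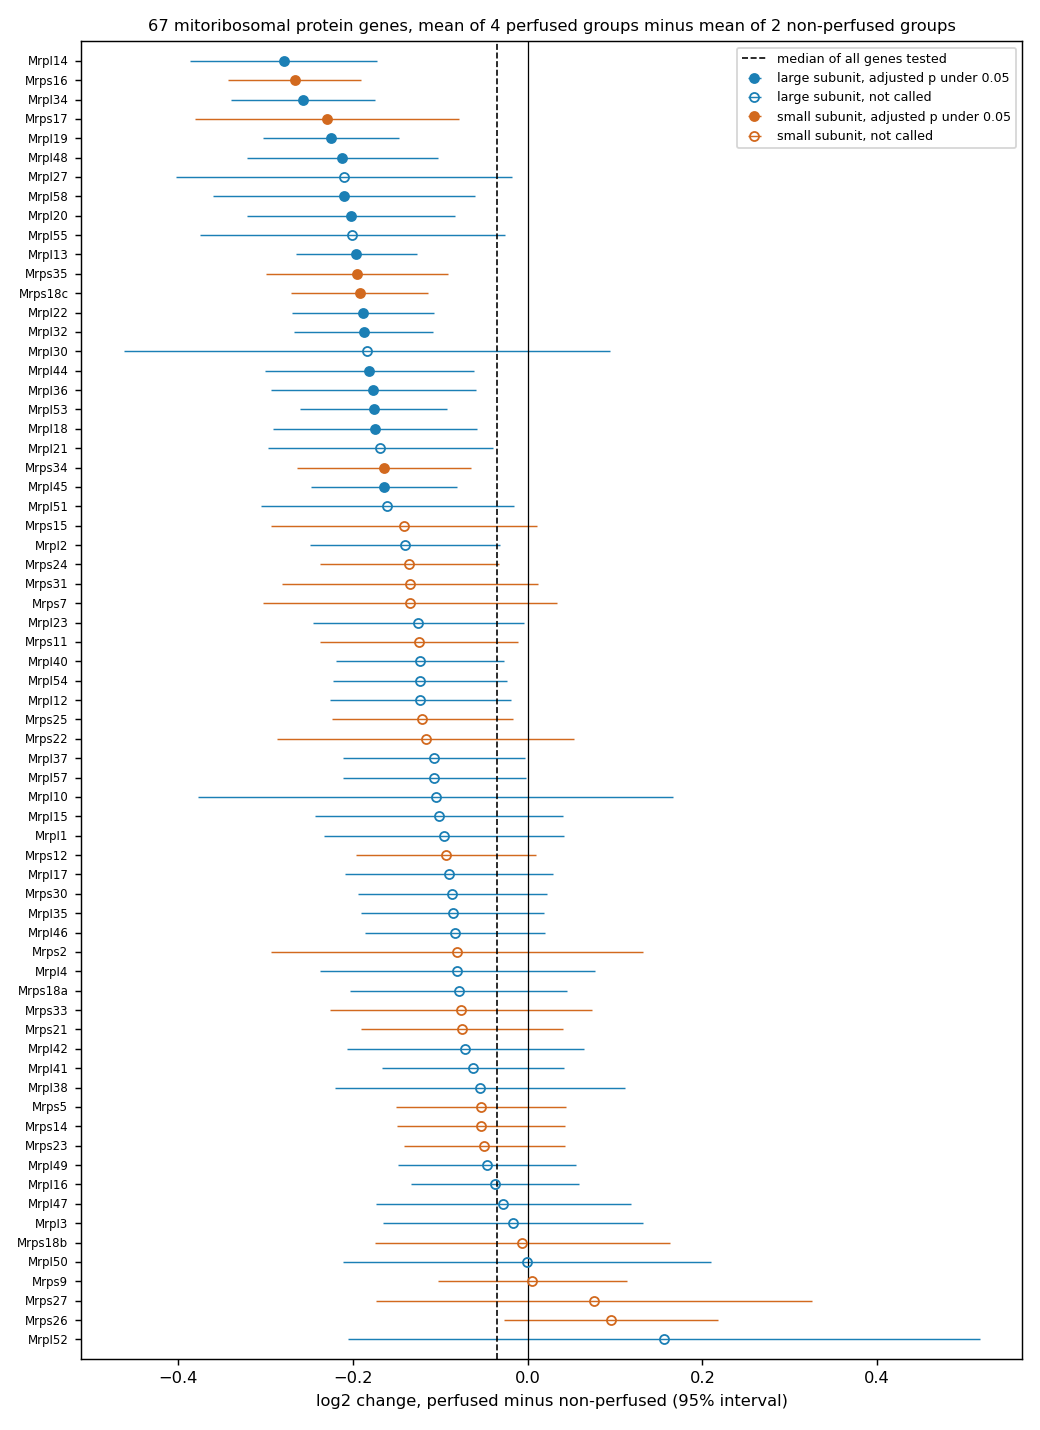
Change of each of the 67 mitoribosomal protein genes (log2, horizontal axis; mean of the 4 perfused groups minus mean of the 2 non-perfused groups) with its 95% interval from limma, ordered by size. Filled points passed an adjusted p of 0.05: 14 genes of the large subunit and 5 of the small subunit, all to the left of 0, and the dashed line marks the median of all genes tested.

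Mrps16, a small subunit protein with a bacterial homologue whose human gene is a known mitochondrial disease gene, had the smallest p-value. Its level was 5.26, 5.28, 5.22, 5.13 and 5.31 in chow non-perfused hearts and 5.22, 5.30, 5.12, 5.37 and 5.35 in sucrose non-perfused hearts. With mannitol it was 5.09, 4.99, 4.92, 4.97 and 5.03 (chow) and 4.95, 4.89, 5.07, 5.02 and 4.84 (sucrose). With glucose it was 5.00, 4.91, 5.06, 4.91 and 5.04 (chow) and 5.05, 5.02, 4.91, 5.07 and 5.06 (sucrose). All 20 perfused hearts lay below all 10 non-perfused hearts, which held for no other mitoribosomal gene and for 0.605% of all genes tested. The mean change was -0.27 (SE 0.037, adjusted p = 3e-06). A second, dimmer probe of Mrps16 also read lower, by -0.19 (SE 0.0669, unadjusted p = 0.00798).

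Mrpl34, the bacterial L34 homologue of the large subunit, showed the next smallest p-value. Its level was 4.70, 4.70, 4.56, 4.73 and 4.74 in chow non-perfused hearts and 4.63, 4.54, 4.44, 4.71 and 4.78 in sucrose non-perfused hearts. With mannitol it was 4.43, 4.53, 4.51, 4.56 and 4.41 (chow) and 4.53, 4.29, 4.35, 4.31 and 4.22 (sucrose). With glucose it was 4.33, 4.30, 4.43, 4.36 and 4.47 (chow) and 4.41, 4.33, 4.38, 4.34 and 4.46 (sucrose). The perfused glucose arrays of chow hearts lay below every chow non-perfused array, but the chow mannitol arrays overlapped that group at its lowest array, and in sucrose hearts non-perfused replicate 3 lay among the perfused arrays. The mean change was -0.26 (SE 0.0403, adjusted p = 1.83e-05).

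Mrpl14, the L14 homologue, had the largest change, -0.28 (SE 0.0520, adjusted p = 0.000181). Its level was 4.16, 4.23, 4.11, 4.38 and 4.25 in chow non-perfused hearts against 3.92, 3.92, 3.96, 3.92 and 3.93 with mannitol and 3.97, 3.69, 4.14, 3.69 and 3.91 with glucose. In sucrose hearts it was 4.17, 4.14, 4.27, 4.24 and 4.38 without perfusion, 4.18, 3.86, 4.00, 3.89 and 4.02 with mannitol and 3.80, 3.98, 4.16, 3.94 and 4.16 with glucose. The 5 chow mannitol hearts lay close together and below every non-perfused heart, whereas each of the other 3 perfused groups held at least 1 array within the range of the non-perfused hearts.

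**Figure D2:**
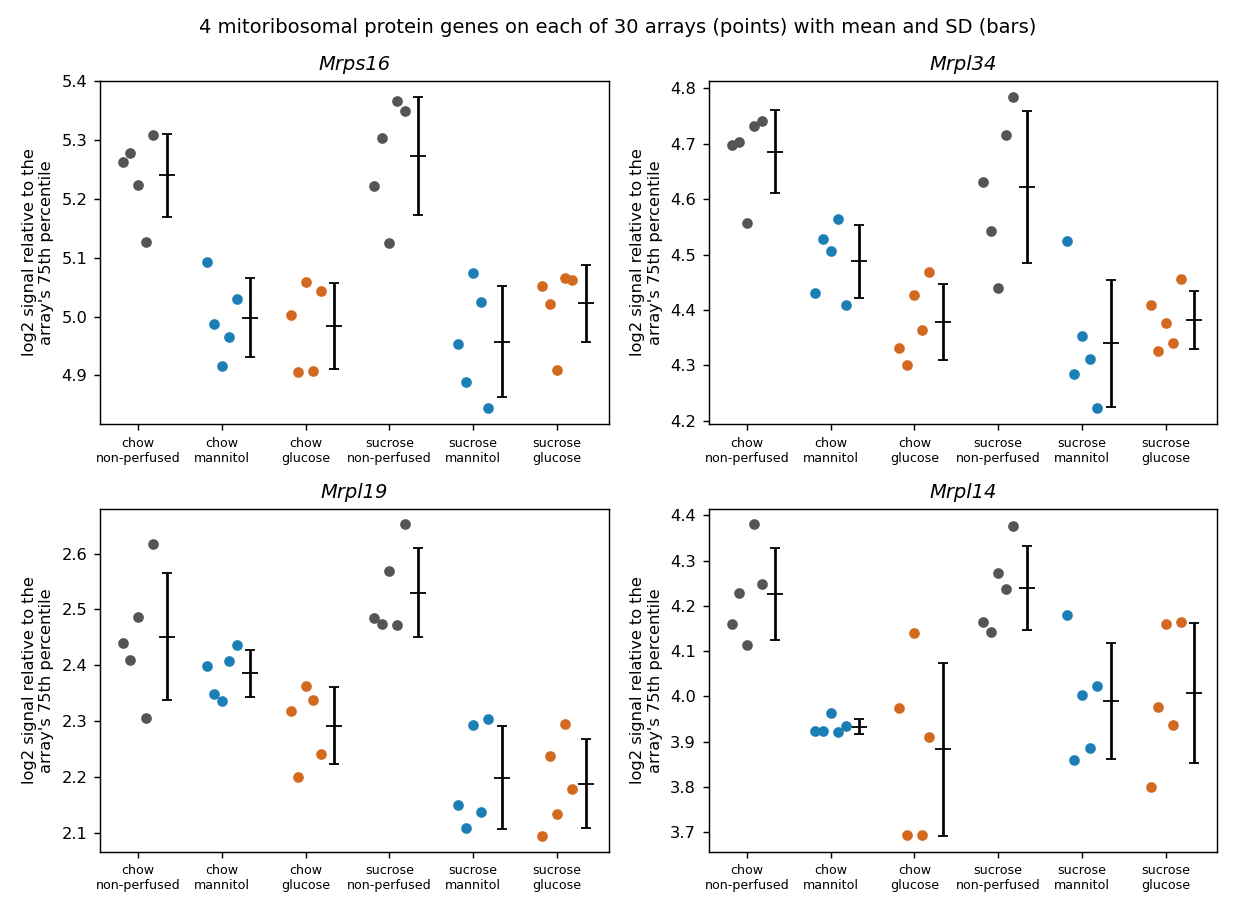
Levels of Mrps16, Mrpl34, Mrpl19 and Mrpl14 (log2 signal relative to the array's 75th percentile, vertical axes that do not start at 0) on each of the 30 arrays, with the mean and SD of the 5 arrays of each group as bars. For Mrps16 every perfused array (4.84 to 5.09) lies below every non-perfused array (5.12 to 5.37), and Mrpl19 is lowest in the perfused sucrose groups.

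Of the 44 genes of the large subunit, 14 fell (median change -0.12), and of the 23 of the small subunit, 5 fell (median change -0.12). Mrpl19 (change -0.22, SE 0.0378), Mrpl13 (-0.20, SE 0.0337), Mrpl22 (-0.19), Mrpl32 (-0.19), Mrpl20 (-0.20), Mrpl18 (-0.17) and Mrpl36 (-0.18), all homologues of bacterial large subunit proteins, were among those that fell. So did large subunit proteins without a bacterial homologue. Mrpl45, which ties the ribosome to the inner membrane where its products are inserted, fell by 0.16 (adjusted p = 0.0034), and Mrpl44, which has a ribonuclease III-like fold, fell by 0.18 (adjusted p = 0.0246). Mrpl58, also known as Ict1, a peptidyl-tRNA hydrolase built into the ribosome that can free stalled ribosomes, fell by 0.21 (adjusted p = 0.0381). Mrpl48 (-0.21) and Mrpl53 (-0.18) completed the large subunit genes that fell. Mrpl12, the homologue of the L7/L12 stalk protein, which is also known to bind the mitochondrial RNA polymerase, had a change of -0.12 that missed the threshold (adjusted p = 0.0838).

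In the small subunit Mrps17 (-0.23), Mrps35 (-0.20), Mrps18c (-0.19) and Mrps34 (-0.16, adjusted p = 0.0139) fell beside Mrps16. Mrps12, the homologue of the decoding centre protein S12, had a change of -0.09 (adjusted p = 0.203) and Mrps22, another known disease gene, one of -0.12 (adjusted p = 0.358), and neither passed. Just outside the threshold lay Mrps24 (-0.14, adjusted p = 0.0517) and Mrpl21 (-0.17, adjusted p = 0.0541). The 4 genes with a higher mean in perfused hearts were Mrpl52 (0.16, SE 0.176), Mrps26 (0.10, SE 0.0595), Mrps27 (0.08, SE 0.122) and Mrps9 (0.01, SE 0.0527), none of which was called. Of the 38 genes with a bacterial homologue 12 fell (median change -0.13), and of the 29 mitochondria-specific genes 7 fell (median change -0.11). The differences between these classes were not tested.

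Within groups the mitoribosomal genes varied less than most genes. The median residual SD over the 67 genes was 0.14, against 0.23 over all genes tested. All 67 were well above background on every array, which was not required of all genes tested, and the signal level was not matched. It was smallest for Mrpl13 (0.068) and Mrps16 (0.0796) and largest for Mrpl52 (0.471), Mrpl30 (0.360), Mrpl10 (0.352) and Mrps27 (0.323). In the deposited values the medians were 0.23 and 0.39.

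Each buffer and diet was then compared with the non-perfused hearts of the same diet. The mannitol and glucose comparisons of a diet share their non-perfused arrays, so their likeness is not independent evidence. In chow hearts with mannitol 3 genes fell (beside 3.65% of all genes tested), and in chow hearts with glucose 7 fell (beside 4.04%). In sucrose hearts with mannitol 12 fell (beside 5.67%), and with glucose 6 fell (beside 3.14%). No mitoribosomal gene rose in any of the 4, where 4.83%, 5.47%, 5.53% and 5.54% of all genes tested did. The share of the 67 genes called was thus 4.48%, 10.4%, 17.9% and 8.96%, so that in chow mannitol hearts it was near that of all genes. The median changes were -0.10, -0.11, -0.15 and -0.14, against -0.01, -0.05, -0.04 and -0.03 over all genes tested. Of the 67 genes 57, 58, 63 and 59 were lower, beside 52.8%, 59.2%, 57.0% and 54.9% of all genes tested.

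**Figure D3:**
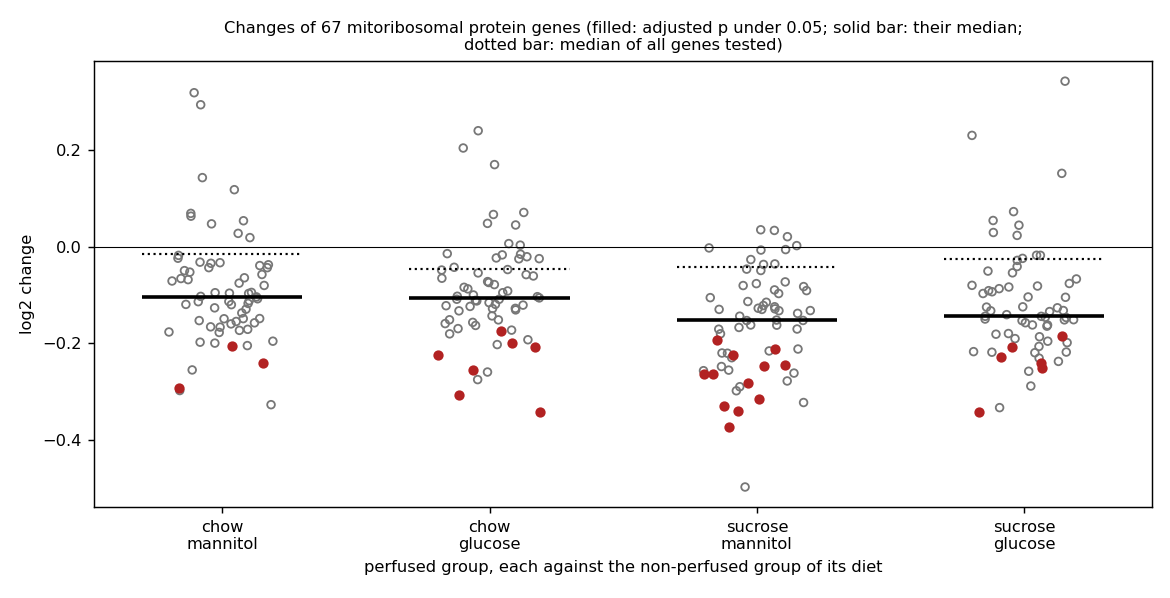
Change of each of the 67 genes (log2, vertical axis) in the 4 perfused groups, relative to non-perfused hearts on the same diet. Filled points passed an adjusted p of 0.05 (3, 7, 12 and 6 genes), solid bars mark the median of the 67 genes and dotted bars that of all genes tested, which lies closer to 0 in each group.

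Mrps16 fell in all 4 comparisons, by 0.24, 0.26, 0.32 and 0.25 (adjusted p = 0.0094, 0.00499, 0.000621 and 0.00665), and 1.37% of all genes tested were called lower in all 4. These calls depended on the setting. Quantile normalization ended the call in sucrose glucose hearts (-0.17, adjusted p = 0.0763) and reduced the sucrose mannitol change to -0.19. With normexp background correction neither glucose comparison passed (adjusted p = 0.0556 in chow and 0.0526 in sucrose hearts). With the mean of both Mrps16 probes, or with only the compared groups in the fit, the sucrose mannitol comparison alone passed, and with the deposited values none of the 4 did. In the mean comparison the call of Mrps16 was lost with the deposited values (-0.17, adjusted p = 0.144) and kept under the other 45 alternatives. Mrpl34, Mrpl13 and Mrpl32 fell in 3 of the 4, each in chow glucose and both sucrose comparisons. Mrpl14, Mrpl22, Mrpl53, Mrps18c, Mrpl45 and Mrpl19 fell in 2, and Mrpl20, Mrpl48 and Mrps35 in 1, whereas 54 genes fell in none. In chow mannitol hearts the genes that fell were Mrpl14 (-0.29), Mrps16 and Mrpl22 (-0.20). In chow glucose hearts Mrpl14 (-0.34), Mrpl34 (-0.31), Mrps16 and Mrpl53 (-0.22) fell most. In sucrose mannitol hearts Mrpl20 (-0.37), Mrps35 (-0.34), Mrpl19 (-0.33) and Mrps16 fell most, and in sucrose glucose hearts Mrpl19 (-0.34), Mrps16, Mrpl34 (-0.24) and Mrpl45 (-0.23).

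Arrays of the 2 groups did not overlap, with the perfused group lower, for 6 genes in chow mannitol hearts (4.51% of all genes tested), 5 in chow glucose hearts (4.26%), 8 in sucrose mannitol hearts (4.87%) and 3 in sucrose glucose hearts (3.39%). In sucrose glucose hearts 1 gene, Mrps26, a mitochondria-specific small subunit protein, separated in the other direction (beside 4.75% of all genes tested). It read 3.60, 3.64, 3.72, 3.76 and 3.58 there against 3.53, 3.35, 3.33, 3.43 and 3.51 without perfusion, a difference of 0.23 that did not pass (adjusted p = 0.161). The counts of genes that fell moved with the arrays included. Shares of all genes tested with those arrays left out are not set beside them, so a change in precision for every gene is not separated. The counts of genes that fell became 1, 3, 5 and 2 without the 4 arrays of noisy negative controls, and the mean comparison then gave 13, a setting chosen after the arrays were seen. Leaving out 1 array at a time, the chow mannitol count was 1 without chow non-perfused replicate 5 or chow mannitol replicate 4 or 5, and 5 without chow non-perfused replicate 3. The chow glucose count was 3 without chow non-perfused replicate 2 or chow glucose replicate 1, and 4 without chow non-perfused replicate 5 or chow glucose replicate 2 or 4. Without sucrose non-perfused replicate 4 the sucrose counts were 7 with mannitol and 2 with glucose, and without replicate 5 of that group the glucose count was 2.

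Which arrays shared a slide was taken from the array identifiers, and each comparison was also read within slides. The median change of the 67 genes in the mean comparison was -0.18, -0.16, -0.09 and -0.11 on slides 1 to 4, with 62, 58, 52 and 52 genes lower. Chow glucose on slide 3 was the exception among the single comparisons, with a median of 0.02 and 32 of 67 genes lower, beside -0.14, -0.17 and -0.19 on the other 3 slides. Chow mannitol gave -0.12, -0.19, -0.03 and -0.08, sucrose mannitol -0.29, -0.19, -0.20 and -0.12, and sucrose glucose -0.20, -0.14, -0.15 and -0.08. None of these medians is relative to all genes tested, whose median deviation also differed between arrays. On slide 1 it was 0.056 to 0.059 on non-perfused and -0.006 to 0.031 on perfused arrays. On slide 4 it was 0.016 to 0.030 and -0.060 to -3.3e-07. The ranges overlapped on slide 2 (-0.042 to -0.011 and -0.034 to -0.004) and slide 3 (0.034 to 0.067 and -0.011 to 0.039). Mrps16 was lower on all 4 slides in the mean comparison, by -0.35, -0.28, -0.22 and -0.21. With slide as a fixed block 31 of the 67 genes fell in the mean comparison, a count without the share of all genes in that setting beside it. Every non-perfused or chow mannitol array was in row 1 of a slide and every glucose array in row 2. The sucrose mannitol arrays were in row 2 except for replicate 1. Row and perfusion with glucose thus cannot be told apart, and row and perfusion hardly can in sucrose mannitol hearts. The mean comparison is partly mixed with row in the same way. Of the perfusion comparisons only chow mannitol lay within 1 row, where 4.48% of the 67 genes and 3.65% of all genes tested fell.

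**Figure D4:**
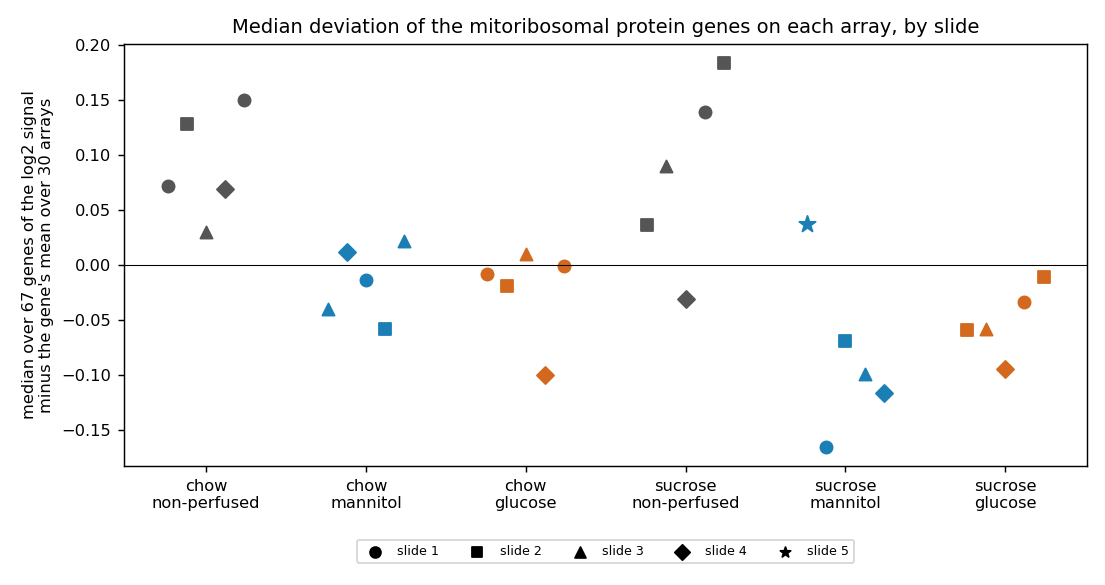
Median over the 67 genes of each array's deviation from the genes' means over 30 arrays (log2, vertical axis), by group, with the slide as marker shape. Non-perfused arrays lie between -0.03 and 0.18 and perfused arrays between -0.16 and 0.04, so the array medians overlap, and a sucrose non-perfused array on slide 4 lies below 0.

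As a summary of each array, the median deviation of the 67 genes was 0.07, 0.13, 0.03, 0.07 and 0.15 in chow non-perfused hearts and 0.04, 0.09, -0.03, 0.14 and 0.18 in sucrose non-perfused hearts. It was -0.04, 0.01, -0.01, -0.06 and 0.02 in chow mannitol hearts and -0.01, -0.02, 0.01, -0.10 and -0.001 in chow glucose hearts. It was 0.04, -0.16, -0.07, -0.10 and -0.12 in sucrose mannitol hearts and -0.06, -0.06, -0.09, -0.03 and -0.01 in sucrose glucose hearts. In chow every non-perfused array thus lay above every perfused one, but the arrays also differed in the median of all genes. The median deviation of all genes tested ran from -0.01 to 0.06 on the chow non-perfused arrays and from -0.04 to 0.04 on the chow perfused arrays. Relative to it, chow non-perfused replicate 3 was at -0.004, below chow mannitol replicate 2 (0.013) and chow glucose replicates 2 (0.015) and 3 (0.009), so that the chow groups then overlapped. In sucrose hearts the mannitol array that lay alone on its slide was higher than the other 4 of its group and overlapped the non-perfused arrays, and non-perfused replicate 3 was as low as perfused arrays.

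Glucose and mannitol were compared directly in the perfused hearts, to ask whether glucose altered these transcripts. No mitoribosomal gene passed in either diet by limma, beside 0% of all genes tested in chow hearts and 0.00545% (1 gene) in sucrose hearts. At an unadjusted p under 0.05 there were 0 in chow hearts (3.90% of all genes tested) and 2 in sucrose hearts (5.06%), Mrpl20 (0.22, SE 0.0946, adjusted p = 0.970) and Mrpl52 (0.60, SE 0.287, adjusted p = 0.982), both higher with glucose. Mrpl20 read 4.43, 4.40, 4.44, 4.17 and 4.16 with glucose and 3.80, 3.86, 4.24, 4.28 and 4.31 with mannitol, and the groups overlapped, 2 mannitol arrays being far below the others. Mrpl52, a mitochondria-specific large subunit protein, read -1.11, -1.34, -1.24, -1.34 and -1.27 with glucose and -2.21, -2.03, -1.34, -1.31 and -2.40 with mannitol, and 2 mannitol arrays lay within the glucose range or beside it. In chow hearts the smallest p-values belonged to Mrpl58 (-0.20), Mrpl34 (-0.11) and Mrpl27 (0.25). The 95% interval of the difference lay within -0.5 and 0.5 for 63 of the 67 genes in chow and for 63 in sucrose hearts, the median reach of an interval to either side being 0.19. Smaller differences between glucose and mannitol could not be seen at this number of arrays. In chow hearts every mannitol array was in row 1 of a slide and every glucose array in row 2. Row and glucose thus cannot be told apart there, while in sucrose hearts only mannitol replicate 1 was outside row 2.

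Diet was compared in each state. Without perfusion no mitoribosomal gene passed by limma (0% of all genes tested) and 0 had an unadjusted p under 0.05 (3.34% of all genes tested). The 3 smallest p-values there belonged to Mrpl10, the homologue of the stalk base protein L10 (0.41 higher with sucrose, SE 0.216), Mrps21 (0.16) and Mrpl30 (0.30), with an adjusted p of 1.00 each. Mrpl10 read 6.31, 6.58, 5.88, 6.22 and 6.42 in sucrose and 6.14, 5.74, 5.85, 5.37 and 6.25 in chow hearts, so 2 sucrose arrays lay within the chow range. The interval lay within -0.5 and 0.5 for 63 of 67 genes.

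In mannitol hearts again no gene passed (beside 0.00545% of all genes tested, 1 gene), but 9 of the 67 had an unadjusted p under 0.05, all lower in sucrose hearts (beside 5.41% of all genes tested that were lower at that p). In this comparison 73.1% of the 67 and 57.8% of all genes tested were lower with sucrose. The 9 genes were Mrpl19, Mrpl13, Mrpl20, Mrpl34, Mrpl45, Mrpl52, Mrpl53, Mrps35 and Mrps7. The smallest p belonged to Mrpl19 (-0.19, SE 0.0617, adjusted p = 0.450), which read 2.15, 2.11, 2.29, 2.14 and 2.30 in sucrose and 2.40, 2.35, 2.34, 2.41 and 2.44 in chow hearts. The groups did not overlap for Mrpl19, nor for Mrpl13, Mrpl32, Mrpl45 and Mrps35 (5 genes, beside 1.31% of all genes tested that were separated with sucrose lower). Chow and sucrose mannitol arrays lay in different rows of the slides except for 1, so row and diet can hardly be told apart here.

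In glucose hearts no gene passed (0% of all genes tested) and 1 had an unadjusted p under 0.05 (beside 4.39%). This was Mrps18b, a small subunit protein, at -0.43 (SE 0.134, adjusted p = 0.999), which read 0.17, 0.76, 0.09, 0.79 and 0.57 in sucrose and 0.95, 0.82, 0.98, 0.65 and 1.12 in chow hearts. Of its sucrose arrays 2 were far below the others, and 2 lay within the chow range. Mrpl37 (-0.15) separated without overlap, sucrose lower (0.338% of all genes tested). The interval lay within -0.5 and 0.5 for 60 genes with mannitol and for 63 with glucose.

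Whether perfusion acted differently in the 2 diets was tested by interaction. No mitoribosomal gene passed for mannitol, for glucose or for their difference (0% of all genes tested in each), with 4, 1 and 0 genes at an unadjusted p under 0.05 (beside 6.17%, 2.62% and 5.01% of all genes tested). Mrpl19 had the smallest p-value for mannitol, with a sucrose minus chow difference between the changes of -0.27 (SE 0.0872, adjusted p = 0.730), and also for glucose (-0.18, SE 0.0872, adjusted p = 1.00). For Mrpl10 the mannitol interaction was -0.82 (SE 0.305, adjusted p = 0.754), and for Mrps21 it was -0.31 (SE 0.130, adjusted p = 0.760). The Mrpl10 changes with mannitol were 0.32 in chow and -0.50 in sucrose hearts, where a second, dimmer probe gave 0.05 and -0.29. Those of Mrps21 were 0.05 and -0.26, where its dimmer probe gave 0.07 and -0.11. The larger number of genes that fell in sucrose than in chow hearts with mannitol (12 against 3, with glucose 6 against 7) is therefore not shown to be a difference between diets. With mannitol the slide row differed from that of the non-perfused arrays only in sucrose hearts, except for replicate 1. Row can thus hardly be told apart from the mannitol interaction, nor from that for the difference of the buffers.

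The other genes of the mitochondrial translation system were counted in the mean comparison of perfused and non-perfused hearts. There 12.3% of all genes tested fell and 10.0% rose. The lists are short, and no test of a list was made. Of 5 mitoribosomal proteins that carry other symbols, Chchd1 (-0.17, adjusted p = 0.00605) and Gadd45gip1 (-0.19, adjusted p = 0.0492) fell, and Dap3, Ptcd3 and Aurkaip1 did not pass. Of 20 assembly factors 6 fell and none rose, led by the ribosomal RNA methyltransferase Mrm2 (-0.45, SE 0.0648), the helicase Ddx28 (-0.26) and the pseudouridine synthase Rpusd4 (-0.23). Of 13 translation factors 3 fell: Mtrfr (-0.38), which rescues stalled ribosomes, the initiation factor Mtif3 (-0.35, SE 0.0980) and the methionyl-tRNA formyltransferase Mtfmt (-0.20). Of 14 mitochondrial aminoacyl-tRNA synthetases 1 fell, Pars2 for proline (-0.19). Of 6 factors of mitochondrial transcription the termination factor Mterf1 (-0.57, SE 0.0466) and the elongation factor Tefm (-0.12) fell, while Tfam (-0.02), Polrmt (0.09) and Tfb2m (-0.05) did not pass.

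Among 9 regulators of nuclear genes for mitochondria, 4 rose and 1 fell, beside 10.0% and 12.3% of all genes tested. Those that rose were Myc (3.25, SE 0.132), the coactivators Pprc1 (0.47, SE 0.0716) and Ppargc1b (0.31, SE 0.0684), and Yy1 (0.35, SE 0.0722). Gabpa, the DNA-binding subunit of GABP, fell (-0.14, SE 0.0414, adjusted p = 0.0125). Nrf1 (0.20, adjusted p = 0.143), Ppargc1a (-0.08, adjusted p = 0.424), Esrra (-0.08) and Gabpb1 (-0.06) did not pass.

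Cytosolic ribosomal proteins and oxidative phosphorylation subunits are the groups nearest to the mitoribosomal proteins in kind. In the mean comparison 23 of 79 cytosolic ribosomal protein genes fell (29.1%, median change -0.12), as did 17 of 70 oxidative phosphorylation genes (24.3%, median change -0.10, with 1 that rose). The mitoribosomal values (28.4% and -0.12) thus lay beside those of both. In sucrose hearts with mannitol 26 of the 79 cytosolic genes fell (median change -0.21) and 19 of the 70 oxidative phosphorylation genes (-0.20), against 12 of the 67 mitoribosomal genes (-0.15). In chow hearts with glucose 0 cytosolic, 1 oxidative phosphorylation and 7 mitoribosomal genes fell. Of all genes tested 12.3% fell in the mean comparison, 5.67% in sucrose mannitol hearts and 4.04% in chow glucose hearts. The chow mannitol and sucrose glucose comparisons are not given here for the cytosolic and oxidative phosphorylation genes. No test of these differences between groups of genes was made.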

How the data were processed

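Each of 30 samples, in 6 groups of 5, was hybridised to a 1-colour Agilent array. Per the file headers, Feature Extraction 11.0.1.1 gave each spot a processed intensity that is corrected for background and for trends within the array, whereas the submitters' processing notes name version 10.3. The deposited series matrix holds log2 values whose scaling between arrays is not stated in the sources used here. The transcript accession of a probe gave its gene symbol for 18355 of 30367 probes (60.4%), and an accession without a symbol was kept as a gene of its own. Spots marked as outliers were left out, except in 264 probe and array pairs that had no other. Spots were averaged, and log2 values were set relative to the 75th percentile of their array. A gene was tested where some group had it well above background on 4 or more of its 5 arrays.

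All genes tested were fitted with limma 3.58.1 in R 4.3.3 (with jsonlite 2.0.0 and version 1.17.8 of data.table), 1 mean per group, and p-values were adjusted over all 18333 genes within each of the 13 comparisons by the Benjamini-Hochberg method with a threshold of 0.05. Model p-values are not exact tests. Intervals are 95%. The method was tested on simulated data. The genes, lists and motifs were chosen with earlier results of these data known. Named in each comparison were up to 4 called genes with the largest change in each direction (up to 12 in the mean comparison) or, with none called, the 3 of smallest p, and 8 genes whatever their values. Named from each other list were up to 3 called genes in each direction. Other genes were named after their values were seen. Alternative settings changed the normalization (quantile, or a median over 13789 probes detected everywhere), the background correction (normexp, offset 50), the values themselves (those deposited), the filter, the choice of probe, the blocks (slide, replicate number), the groups fitted, limma's variance options or the arrays included.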

Additional observations from a re-analysis of the deposited data

Results flagged for a closer look

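For each named gene, and for the median deviation of the 67 genes, the 5 arrays of a group were searched for 1 array that stood apart (174 searches, 11 found). The criterion was a gap to the nearest other array above the 95% limit of Dixon's test, so chance alone gives some. Levels are log2 signals relative to the array's 75th percentile.

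In chow glucose hearts replicate 2 was low for Mrpl44 (1.93, the others 2.18 to 2.22) and Mrps17 (2.11, the others 2.51 to 2.66). Replicate 4 of that group was low for Mrps35 (2.36, the others 2.64 to 2.74) and Mrpl52 (-1.83, the others -1.21 to -1.15), and the median deviation of the 67 genes there was -0.10 (the others -0.02 to 0.01). In chow mannitol hearts Mrps18c was low in replicate 4 (2.71, the others 2.87 to 2.92) and Mrpl10 in replicate 2 (5.34, the others 6.29 to 6.64). In sucrose mannitol hearts Mrpl37 was low in replicate 2 (4.64, the others 4.89 to 4.99) and Mrpl30 in replicate 5 (1.01, the others 1.80 to 1.95), an array of noisy negative controls. In sucrose glucose hearts Mrps16 was low in replicate 3 (4.91, the others 5.02 to 5.07). In chow non-perfused hearts Mrpl34 was low in replicate 3 (4.56, the others 4.70 to 4.74).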

How the results depend on the processing

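Counts of genes that fell are given for mannitol then glucose in chow hearts, mannitol then glucose in sucrose hearts, and the mean comparison, where they were 3, 7, 12, 6 and 19. They became 3, 6, 4, 2 and 16 with quantile normalization, 5, 7, 11, 7 and 24 with a median over probes detected everywhere, 1, 0, 3, 0 and 12 with normexp, and 1, 3, 9, 3 and 18 without a filter. Slide as a random block gave 5, 8, 14, 9 and 27, slide as a fixed block 4, 8, 17, 9 and 31, only the compared groups 1, 1, 4, 1 and 19, and array weights 5, 10, 13, 7 and 27. Chosen after seeing the data, leaving out the 4 arrays of noisy negative controls gave 1, 3, 5, 2 and 13, and a further removal of the sucrose mannitol array on the fifth slide gave 2, 3, 6, 3 and 16. Leaving out 1 array at a time gave 1 to 5, 3 to 6, 7 to 14, 2 to 8 and 15 to 22. Shares of all genes tested are not set beside these counts, which therefore show only how the calls move with the setting. The deposited values gave 0 in each (1, 5, 0, 0 and 6 at an unadjusted p under 0.05), with median changes of -0.09, -0.15, -0.07, -0.044 and -0.09 against 0.03, -0.14, 0.03, 0.08 and -0.004 over all genes, so that chow glucose lay near the shift of all genes. In the deposited values the medians were -0.086 for glucose against mannitol in chow hearts (all genes -0.15), -0.10 for diet without perfusion (-0.12) and 0.044 for diet with glucose (0.09). The interactions gave 0.042 for mannitol (0.02), 0.14 for glucose (0.21) and 0.12 for their difference (0.20). The cause of these differences was not tested. Normexp (0.04) and the deposited values (0.05) turned the sign of Mrps22, which was not called. Changes of sign were checked only for the genes named by rule in a comparison. Of these, no called gene changed sign under any of the alternatives. No mitoribosomal gene was called for glucose against mannitol, diet or interaction.

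The replicate numbers gave no sign of pairing. Residuals correlated by -0.0366 on average between arrays of like number, by 0.00974 between arrays of unlike number and by 0.204 within a slide. A replicate block gave counts of 2, 4, 9, 5 and 20.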
